A study of Mus musculus with 6 samples.

Results

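Imprinted genes were followed in oligodendrocyte lineage cells from a mouse model of Niemann–Pick type C disease, a lysosomal storage disorder caused by loss of the cholesterol transporter NPC1. The 10 genes were *Meg3*, *Rian*, *Mirg*, *Dlk1*, *Peg3*, *Peg10*, *Ndn*, *Snrpn*, *Igf2* and *Plagl1*, taken by symbol from a table of 55492 genes, and each symbol matched 1 row. Whole brains of postnatal day 16 mice, 3 wild type (WT) and 3 *Npc1*-/-, were dissociated, and cells carrying the O4 antigen, a lipid of late oligodendrocyte progenitors and immature oligodendrocytes, were captured on magnetic microbeads. *Npc1*-/- mice were homozygous for the null *Npc1*nih allele in every cell of the body, WT mice were their littermates, and all were F1 hybrids from *Npc1*+/- parents of the BALB/cJ and C57BL6/J strains. Each mouse gave 1 library of polyadenylated RNA.

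An imprinted gene is transcribed mainly from the chromosome inherited from the mother or mainly from the one inherited from the father. The choice is laid down by DNA methylation of imprinting control regions in the germ line and is kept through cell division. Most imprinted genes lie in clusters in which 1 control region acts on several neighbours, so that protein-coding genes of one parental chromosome face noncoding RNAs of the other. Several are known for roles in growth and in the developing brain, and some are imprinted in particular cell types only. The deposited values add both alleles of a gene, so they give its total transcript level and not which allele it came from.

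Levels are given as scaled TPM, that is, transcript abundance per sample divided by a size factor (the median ratio of its genes to their mean over samples), with samples in the order WT 1, 2, 3 and *Npc1*-/- 1, 2, 3. A gene was called changed where limma gave an adjusted p under 0.05 and a log2 fold change of 0.1 or more in either direction, fitted to log2(scaled TPM + 0.5) over 15245 genes with Benjamini-Hochberg adjustment. Fold changes are on that scale, *Npc1*-/- over WT, with the standard error (SE), and directions are relative to the median gene, whose log2 fold change was 0.01 here and -0.33 with TPM as deposited. Of all genes tested, 124 (0.813%) were called, and the groups did not overlap in 27.5%.

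Depth was estimated at between 40000000 and 50000000 fragments per library. The transcript of *Npc1* itself stood at 41.1, 45.5 and 43.9 in WT mice and at 3.72, 5.17 and 4.35 in *Npc1*-/- mice. *Xist*, the RNA of the inactive X chromosome, was at 21.4 in *Npc1*-/- 3 and at no more than 0.00963 in the other samples, so this library came from a female and the others did not. Mature oligodendrocyte markers dominated every library, and *Mbp* alone held between 18.8% and 26.1% of the TPM. The markers of immature oligodendrocytes summed to between 313.9 and 453.2 scaled TPM and those of progenitors to between 310.5 and 596.7. Markers of other cells were present, and 2 of 12 pan-neuronal markers (*Nefl*, log2 fold change 1.22, and *Nefm*, 1.11, adjusted p = 0.0185 and 0.0134 by limma) and 1 of 6 microglia markers (*Tmem119*, -1.44, adjusted p = 0.0442) were called. Of the 12 neuronal markers, 11 had positive log2 fold changes. The other, *Map2*, was lower in every *Npc1*-/- than in every WT sample (-0.31, adjusted p = 0.147 by limma). With TPM as deposited 7 of the 12 were positive, and 11 lay above the median gene. The summed neuronal markers ran from 320.6 to 348.2 scaled TPM in WT mice and from 386.4 to 447.9 in *Npc1*-/- mice. Summed pericyte markers ran from 344.8 to 507.3 in WT mice and from 204.8 to 264 in *Npc1*-/- mice, and summed endothelial markers from 921.5 to 1047 and from 453.1 to 763.1. No marker of these lists was at 0 in any sample. In bulk samples fewer cells of a type cannot be told apart from less RNA per cell.

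All 10 imprinted genes passed the filter on mean TPM, and none of them was called by limma. An unadjusted p below 0.05, reached by 22.2% of all genes, was reached by *Rian* and *Ndn*. The log2 fold change was positive for 4 genes (*Rian*, *Snrpn*, *Ndn*, *Peg3*) and negative for 6, with a median of -0.16 against 0.01 over all genes, and with TPM as deposited *Snrpn*, *Ndn* and *Peg3* turned negative. The groups did not overlap for 2 genes, *Ndn* and *Mirg*, where they did not for 27.5% of all genes. By level, *Igf2* (mean 136.2 scaled TPM over the 6 samples) and *Snrpn* (116.5) came first, followed by *Rian* (72.3), *Ndn* (22.3) and *Meg3* (17.8). *Peg3* (5.77), *Plagl1* (3.48), *Dlk1* (3.20), *Peg10* (1.98) and *Mirg* (0.670) were lower. The sample ranges of neighbours in this order overlapped for *Igf2* with *Snrpn*, *Snrpn* with *Rian*, *Ndn* with *Meg3*, and *Peg3* with *Plagl1*, *Plagl1* with *Dlk1* and *Dlk1* with *Peg10*.

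**Figure D1:**
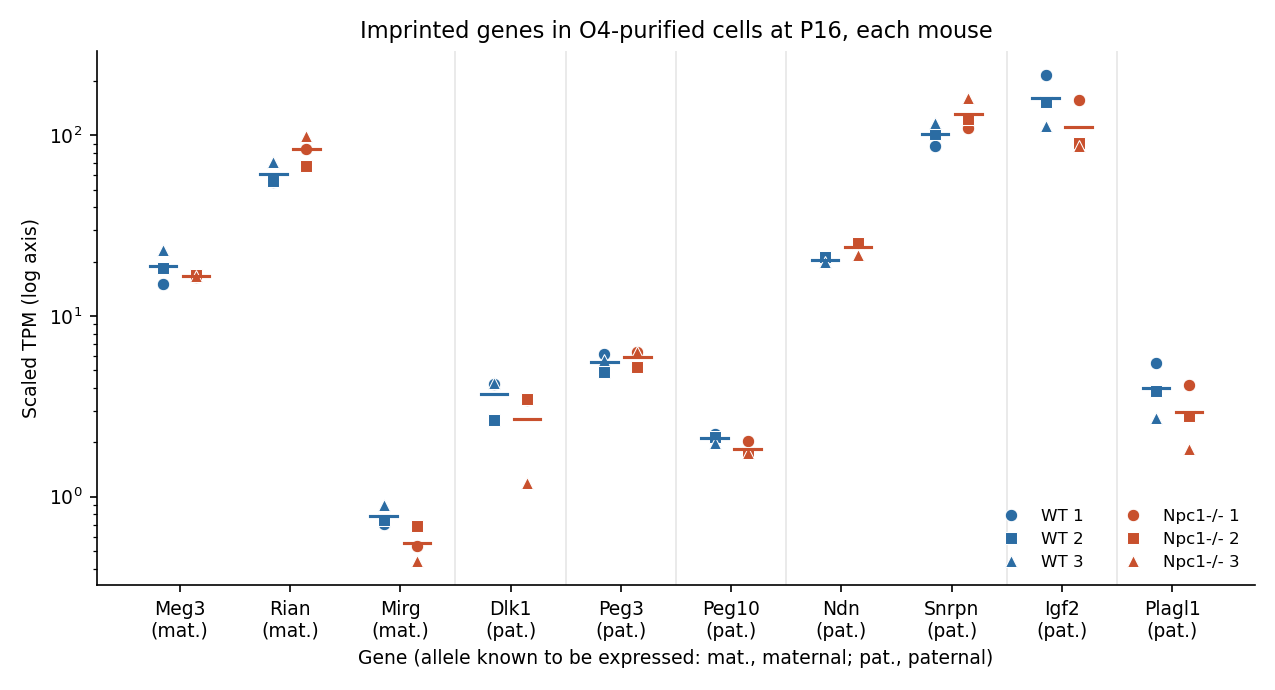
Scaled TPM (log axis) of the 10 imprinted genes in each of 3 WT (blue) and 3 Npc1-/- (orange) mice, with short lines at the group means and marker shapes giving the replicate number. The levels span from 0.440 for Mirg in Npc1-/- 3 to 215.8 for Igf2 in WT 1, and within a gene the groups overlap except for Mirg and Ndn.

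The Dlk1-Dio3 domain of chromosome 12 gave 4 of the genes. From the maternal chromosome it makes a row of noncoding RNAs, *Meg3*, *Rian* and *Mirg*, all on the plus strand and 32.2 kb and 68.0 kb apart, which carry small nucleolar RNAs and many microRNAs in their introns and exons. From the paternal chromosome it makes *Dlk1*, a transmembrane relative of the Notch ligands known for holding back differentiation. In GRCm38, *Dlk1* lies at chr12:109452823-109463336, *Meg3* at chr12:109541001-109571726, *Rian* at chr12:109603940-109661716 and *Mirg* at chr12:109729764-109749460.

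*Rian* and *Meg3*, the neighbours of that row, had log2 fold changes of opposite sign in these samples, and neither was called. *Rian* had scaled TPM values of 55.4, 55.7 and 71.3 in WT (60.8 ± 9.11, SD, n = 3) and 84.6, 68.0 and 99.1 in *Npc1*-/- samples (83.9 ± 15.6, n = 3). WT 3 was above *Npc1*-/- 2, so the groups overlapped, and the log2 fold change was 0.45 (SE 0.16, adjusted p = 0.162 by limma). *Meg3*, best known as a maternally expressed RNA linked to growth restraint, was at 15.03, 18.4 and 23.2 in WT and at 16.4, 16.9 and 16.6 in *Npc1*-/- samples. The *Npc1*-/- values of *Meg3* lay inside the WT range, with a log2 fold change of -0.16 (SE 0.15, adjusted p = 0.606), which was -0.31 without WT 1 and -0.0033 without WT 3. *Mirg* was at 0.710, 0.741 and 0.905 in WT and at 0.536, 0.690 and 0.440 in *Npc1*-/- samples. All *Npc1*-/- values of *Mirg* were below all WT values, and the log2 fold change was -0.29 (SE 0.18, adjusted p = 0.415). At this low level the pseudocount set its size, from -0.20 with 1 to -0.45 with 0.1. This gene rested on few reads, at most between 41 and 102 fragments per library if all came from its longest transcript.

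A ratio of 2 genes within a sample needs no size factor. There were 3.69, 3.03 and 3.08 *Rian* transcripts per *Meg3* transcript in WT and 5.16, 4.01 and 5.98 in *Npc1*-/- samples. Every *Npc1*-/- ratio was above every WT ratio, a log2 difference of 0.62 where replicates varied by 0.23 (SD). The two-sided exact permutation test gave p = 0.1, which is the smallest that 3 against 3 allows, and 0.5 after Benjamini-Hochberg adjustment over the 5 ratios tested. The ratio of *Mirg* to *Meg3* ran the other way, from 0.0390 to 0.0473 in WT mice and from 0.0266 to 0.0407 in *Npc1*-/- mice, with overlap (exact p = 0.3, log2 difference -0.36). That difference was -0.13 with 0.5 added before the ratio and -0.20 without *Npc1*-/- 3. Of the transcript sequence of *Meg3*, 8.96% of all stretches of 100 bases also occur in other annotated genes (*Gm26906*, not analysed here, and *Gm27000*, listed at 0 in every sample), against 0.00517% of *Rian* and none of *Mirg*.

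**Figure D2:**
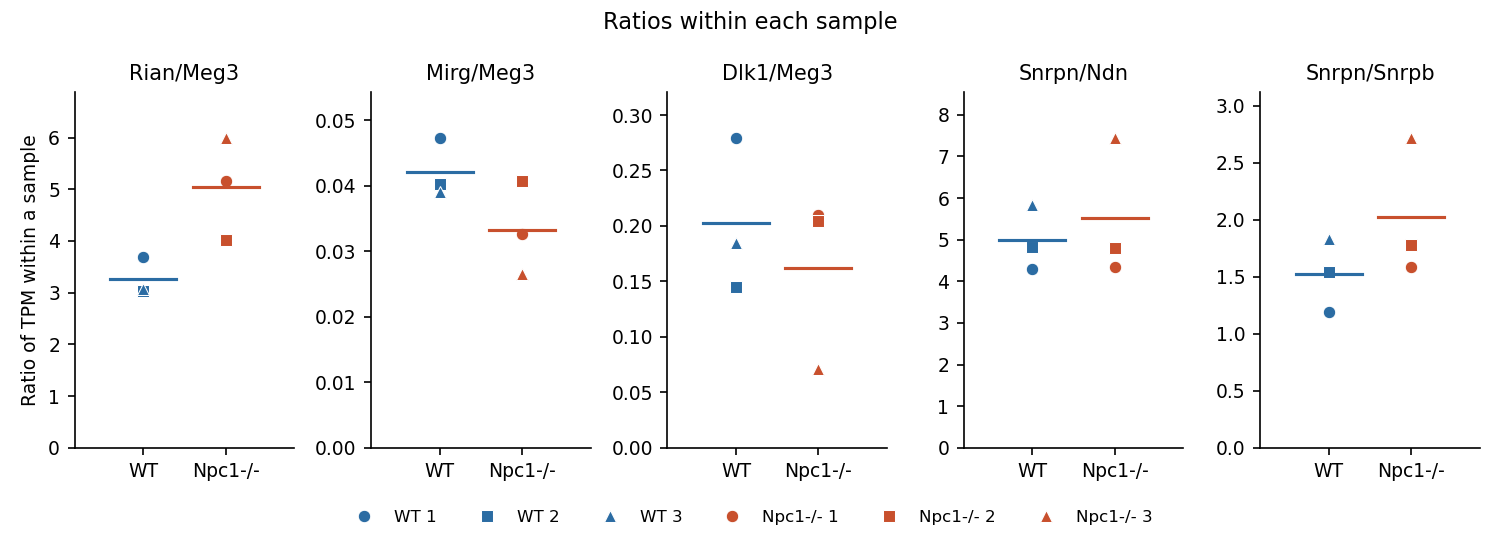
Ratios of TPM within each sample for 5 pairs of genes, with axes from 0, WT in blue, Npc1-/- in orange, lines at group means and marker shapes giving the replicate number. Rian/Meg3 is the one pair whose groups do not overlap, from 3.03 to 3.69 in WT mice and from 4.01 to 5.98 in Npc1-/- mice.

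The 250 bases before the annotated starts of *Meg3* and *Rian* are shown because these neighbours differ in what lies there (RefSeq, GRCm38.p6, plus strand, CpG dinucleotides in capitals). The first is chr12:109540746-109540995 and the second chr12:109603695-109603944.
*Meg3*: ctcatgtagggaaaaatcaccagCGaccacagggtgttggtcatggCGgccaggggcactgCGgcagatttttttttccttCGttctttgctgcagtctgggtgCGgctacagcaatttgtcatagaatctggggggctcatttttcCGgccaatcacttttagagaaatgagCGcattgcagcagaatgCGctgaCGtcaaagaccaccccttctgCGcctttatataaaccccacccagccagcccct
*Rian*: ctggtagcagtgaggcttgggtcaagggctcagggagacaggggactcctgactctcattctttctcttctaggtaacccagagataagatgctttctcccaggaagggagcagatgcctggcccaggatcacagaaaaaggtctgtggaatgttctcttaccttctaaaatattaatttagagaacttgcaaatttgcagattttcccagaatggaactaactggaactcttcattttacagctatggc
The *Meg3* window holds 10 CpG and the *Rian* window 0. The median of the 32851 promoter windows in the table is 6, and 37.8% hold 10 or more. The methylation-dependent imprint-binding protein ZFP57 recognises TGCCGC. These letters, read on both strands, occur in 2 of 16 windows of the members (12.5%), namely those of *Meg3* and *Plagl1*, and in 8.68% of all windows. *Peg10* had no window.

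*Mirg* spans 14 microRNA hairpins on its own strand, from which the RefSeq table lists 26 mature microRNAs with 25 different seeds. The 14 microRNA rows within *Mirg*, the 4 within *Rian* and the 2 within *Meg3*, and also the 13 small nucleolar RNA rows within *Rian*, were listed at 0 TPM in all samples, so that values were had for the host transcripts alone. One known for acting in dendrites of neurons and the pair with a shared seed are shown, with bases 2 to 8 (the seed) in capitals.
miR-134-5p: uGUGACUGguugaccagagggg
miR-453: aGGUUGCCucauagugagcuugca
miR-496a-5p: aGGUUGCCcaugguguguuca
They lie at chr12:109734145-109734166, chr12:109735669-109735692 and chr12:109739132-109739152 of GRCm38.p6.

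*Dlk1* was at 4.19, 2.67 and 4.29 scaled TPM in WT and at 3.43, 3.46 and 1.18 in *Npc1*-/- samples. The 1 low value was that of *Npc1*-/- 3, the female library, and the other *Npc1*-/- values lay inside the WT range. The log2 fold change was -0.48 (SE 0.36, adjusted p = 0.485 by limma), and -0.07 without *Npc1*-/- 3. Markers of oligodendrocyte progenitors summed to 310.5 in *Npc1*-/- 3 and to between 436 and 596.7 in the others, and their part in the low value was not tested. *Dlk1* per *Meg3* transcript ran from 0.145 to 0.279 in WT mice and from 0.0714 to 0.209 in *Npc1*-/- mice (exact p = 0.7, log2 difference -0.43, and 0.08 without *Npc1*-/- 3). The other paternal genes of the domain, *Rtl1* and *Dio3*, did not reach the filter, at no more than 0.0232 and 0.178 scaled TPM in any sample.

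The Prader-Willi domain of chromosome 7 gave *Ndn* and *Snrpn*. Its imprinting centre lies at the start of *Snurf-Snrpn*, and its paternal genes, which include the small nucleolar RNA host *Snhg14*, are lost in Prader-Willi syndrome. *Ube3a*, the ubiquitin ligase gene of Angelman syndrome, is expressed from the maternal chromosome in neurons, where *Snhg14* runs antisense to it.

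*Ndn*, a MAGE family protein known for promoting neuronal differentiation and survival, lies at chr7:62346569-62350262 on the plus strand. Its scaled TPM was 20.3, 21.2 and 19.96 in WT (20.5 ± 0.611, SD, n = 3) and 25.2, 25.5 and 21.7 in *Npc1*-/- samples (24.2 ± 2.11, n = 3). All *Npc1*-/- values were above all WT values, by the least in *Npc1*-/- 3, and the log2 fold change was 0.23 (SE 0.09, adjusted p = 0.208 by limma). *Snrpn*, which encodes SmN, the brain form of a core protein of spliceosomal small nuclear ribonucleoproteins, lies at chr7:59982495-60140219 on the minus strand. It stood at 87.3, 101.8 and 116.6 in WT (101.9 ± 14.6) and 109.4, 122.5 and 161.4 in *Npc1*-/- samples (131.1 ± 27.1). WT 3 was above *Npc1*-/- 1, and the log2 fold change was 0.35 (SE 0.17, adjusted p = 0.280), or 0.19 without *Npc1*-/- 3. In scaled TPM *Npc1*-/- 3, with the highest *Snrpn*, also had the highest sum of mature oligodendrocyte markers, and WT 1 the lowest of both. That sum, most of it *Mbp*, was 171703, 237562 and 242747 in WT and 217267, 342744 and 431356 in *Npc1*-/- samples. Its part in the *Snrpn* values was not tested. These ranks of *Snrpn* depend on the size factors. With TPM as deposited *Snrpn* was highest in WT 3 (121) and lowest in *Npc1*-/- 2 (104.7), with 113.1 in WT 1 and 117.3 in *Npc1*-/- 3.

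The other genes of the domain, from a list of 46 imprinted genes besides the members (45 found in the table by symbol, 31 past the filter), were taken next. *Peg12*, an intronless gene of the FRAT family that binds the kinase GSK3, was the 1 of these that was called, where 0.400% of all genes were called higher in *Npc1*-/- samples. It lies at chr7:62461871-62464510 on the minus strand, 111.6 kb beyond *Ndn*. *Peg12* was at 1.24, 1.20 and 1.20 scaled TPM in WT and at 2.57, 2.68 and 2.37 in *Npc1*-/- samples. The lowest *Npc1*-/- value stood well above the highest WT value, and *Peg12* rose by 0.82 (SE 0.13, adjusted p = 0.0450 by limma). The call was lost when any library other than *Npc1*-/- 3 was left out, with adjusted p values from 0.0685 to 0.187 and log2 fold changes from 0.80 to 0.82, and also with TPM as deposited (0.54, adjusted p = 0.211) and with no filter (adjusted p = 0.126). At this low level the log2 fold change ran from 0.67 with a pseudocount of 1 to 1.00 with 0.1, and *Peg12* was called with both.

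*Mkrn3*, a ring finger gene linked to the timing of puberty, was at 1.27, 1.39 and 1.25 in WT and at 2.89, 2.66 and 1.28 in *Npc1*-/- samples. Its *Npc1*-/- 3 value lay within the WT range, and the log2 fold change was 0.56 (SE 0.25, adjusted p = 0.247 by limma). Without *Npc1*-/- 3, *Mkrn3* was called as well. *Snhg14* was at 1.98, 2.68 and 2.64 in WT and at 3.504, 4.88 and 3.04 in *Npc1*-/- samples, without overlap (log2 fold change 0.54, SE 0.19, adjusted p = 0.157). *Snurf* swung from 0 to 19.1 scaled TPM within WT, and its longest transcript of 216 bases is shorter than the estimated fragments of 230 to 250 bases, so its log2 fold change of 0.24 (SE 1.51) is uncertain. *Magel2* did not reach the filter. The 6 paternal genes tested, the uncertain *Snurf* included, all had positive log2 fold changes, with a median of 0.45, where 51.0% of all genes did. Without *Snurf* all 5 were positive, with a median of 0.54. With TPM as deposited 4 of the 6 were positive, and all 6 stayed above the median gene. The groups did not overlap in 3 of the 6, higher in *Npc1*-/- samples, where 13.3% of all genes were so. *Ube3a* was at 13.8, 12.9 and 11.9 in WT and at 11.1, 10.4 and 11 in *Npc1*-/- samples. Its groups did not overlap either, in the other direction (log2 fold change -0.24, SE 0.09, adjusted p = 0.197). *Snhg14* and *Ube3a* overlap at their ends on opposite strands, and since the use of strand is not stated, reads from the overlap cannot be told apart. In scaled TPM the summed neuronal markers given above were higher in every *Npc1*-/- than in every WT sample. With TPM as deposited 7 of these 12 markers were positive. Their part in the values of this domain was not tested.

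**Figure D3:**
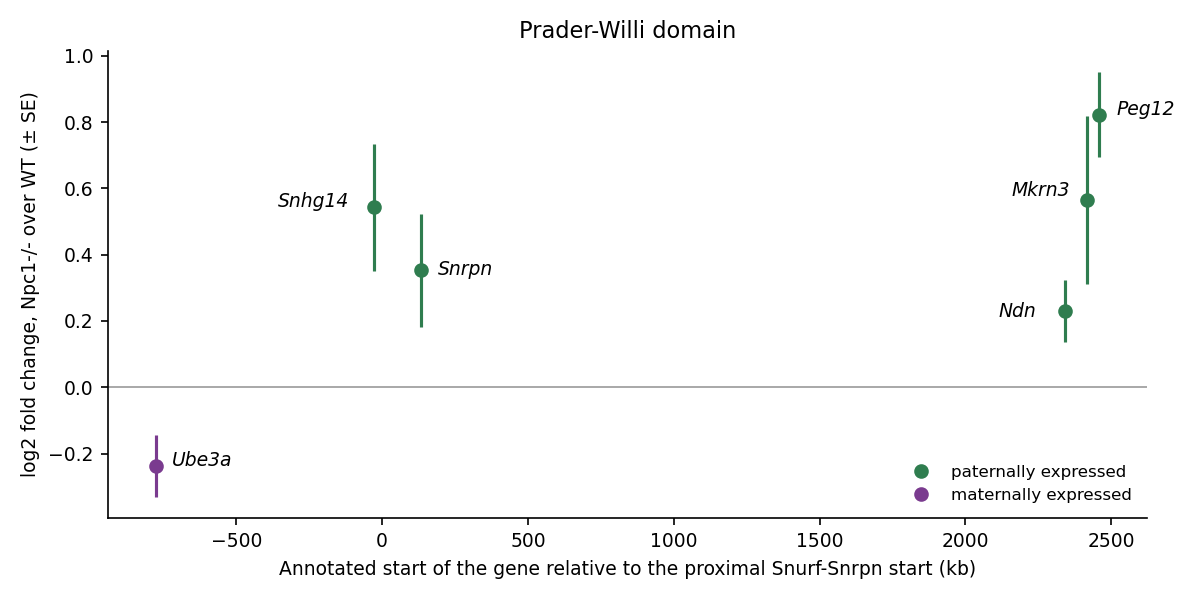
Log2 fold change (Npc1-/- over WT, ± SE of the fit to 3 mice per genotype) of the genes of the Prader-Willi domain against the distance of their annotated start from the proximal Snurf-Snrpn start in kb, Snurf itself left out. The 5 paternally expressed genes lie between 0.23 and 0.82 and the maternally expressed Ube3a at -0.24, with Peg12, 2459 kb from that start, the one gene called, and with TPM as deposited Ndn and Snrpn lie below 0.

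The starts of 3 paternal genes of the domain are shown, since their *Npc1*-/- values tended the same way (RefSeq, GRCm38.p6, minus strand, the 250 bases before the start, CpG in capitals). The windows are chr7:62464511-62464760, chr7:62420154-62420403 and chr7:60005200-60005449.
*Peg12*: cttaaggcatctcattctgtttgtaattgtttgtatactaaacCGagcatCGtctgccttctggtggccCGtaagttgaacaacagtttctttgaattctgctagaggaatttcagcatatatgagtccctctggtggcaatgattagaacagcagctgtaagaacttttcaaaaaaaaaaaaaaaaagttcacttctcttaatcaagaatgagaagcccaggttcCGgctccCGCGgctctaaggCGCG
*Mkrn3*: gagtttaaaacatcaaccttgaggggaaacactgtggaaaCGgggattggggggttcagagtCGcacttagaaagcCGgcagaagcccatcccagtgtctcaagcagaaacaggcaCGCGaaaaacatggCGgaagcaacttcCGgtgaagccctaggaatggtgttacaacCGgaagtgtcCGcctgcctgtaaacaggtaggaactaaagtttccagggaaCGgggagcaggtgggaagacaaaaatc
*Snurf-Snrpn*: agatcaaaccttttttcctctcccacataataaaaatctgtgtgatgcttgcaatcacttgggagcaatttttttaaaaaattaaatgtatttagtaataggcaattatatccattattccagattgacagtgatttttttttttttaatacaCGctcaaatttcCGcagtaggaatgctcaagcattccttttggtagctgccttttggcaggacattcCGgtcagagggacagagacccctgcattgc
They hold 8, 10 and 3 CpG, and the ZFP57 letters occur in none of them. Imprinting control regions outside the windows of 250 bases were not examined, so these counts do not describe the imprinting centre.

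SmN can take the place of SmB, which the paralog *Snrpb* encodes, in the Sm ring. No stretch of 100 bases was shared between the transcripts of these genes. *Snrpb* was at 73.2, 66.1 and 63.5 scaled TPM in WT and at 68.8, 68.8 and 59.5 in *Npc1*-/- samples (log2 fold change -0.04, SE 0.10, adjusted p = 0.855 by limma). There were thus between 1.19 and 1.84 *Snrpn* transcripts per *Snrpb* transcript in WT and between 1.59 and 2.72 in *Npc1*-/- samples, which overlapped (exact p = 0.3, log2 difference 0.40, SD between replicates 0.36). That difference was 0.17 without *Npc1*-/- 3 and 0.23 without WT 1. The ratio of *Snrpn* to *Ndn* ran from 4.30 to 5.84 and from 4.34 to 7.43 (exact p = 0.7, log2 difference 0.12, and -0.12 without *Npc1*-/- 3). Of the 8 Sm core protein genes none was called and 6 had positive values (1 with TPM as deposited), and those with the smallest p were *Snrpe* (0.42, SE 0.08, adjusted p = 0.0584) and *Snrpf* (0.31, SE 0.10, adjusted p = 0.126). In the MAGE family, where *Ndn* had the smallest p, *Mageh1* came next (0.13, SE 0.13, adjusted p = 0.621), and none of 5 genes tested was called. Of the stretches of 100 bases of *Snrpn*, 19.2% are shared with *Snurf*, the overlapping gene *Gm38393* or the pseudogene *Gm18908*. *Gm38393* was at no more than 1.18 scaled TPM in any sample.

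*Igf2* and *Plagl1* differed widely between mice of 1 genotype. *Igf2*, a fetal growth factor made from the paternal chromosome, lies at chr7:142650766-142666816 on the minus strand. In brain it is known to come largely from choroid plexus and leptomeninges, where its imprinting is relaxed. Its scaled TPM was 215.8, 153 and 112.8 in WT (160.5 ± 51.9, SD, n = 3) and 156.9, 90.9 and 87.8 in *Npc1*-/- samples (111.9 ± 39.0, n = 3). Within each genotype replicate 1 was the highest, the groups overlapped, and the log2 fold change was -0.52 (SE 0.29, adjusted p = 0.355 by limma). It was -0.28 without WT 1 and -0.79 without *Npc1*-/- 1. *Plagl1*, a zinc finger transcription factor known to act on *Igf2*, lies at chr10:13060504-13131694 on the plus strand. *Plagl1* was at 5.497, 3.83 and 2.72 in WT and at 4.17, 2.80 and 1.84 in *Npc1*-/- samples, in the same order of samples within each genotype as *Igf2* (log2 fold change -0.40, SE 0.31, adjusted p = 0.497). It was -0.16 without *Npc1*-/- 3, -0.17 without WT 1 and -0.65 without *Npc1*-/- 1.

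The choroid plexus markers had their highest values in the same 2 samples. *Ttr*, the thyroxine carrier made by that epithelium, was at 5348, 3141 and 2948 scaled TPM in WT and at 4950, 2405 and 2443 in *Npc1*-/- samples. All 6 markers were above 0 in every sample, their sum ran from 3050 to 5545 in WT mice and from 2480 to 5105 in *Npc1*-/- mice, all 6 had negative log2 fold changes (median -0.40) and none was called. The smallest p were those of *Kl* (log2 fold change -0.47, adjusted p = 0.413) and *Clic6* (-0.47, adjusted p = 0.433). Per *Ttr* transcript there were between 0.0383 and 0.0487 *Igf2* transcripts in WT and between 0.0317 and 0.0378 in *Npc1*-/- samples, which just missed overlap and were not tested. Markers of vascular and leptomeningeal fibroblasts summed to 411.3, 319 and 228.5 in WT mice and to 360.6, 217.6 and 188.6 in *Npc1*-/- mice, and most of that was *Igfbp2*, itself a gene of the IGF system. Without *Igfbp2* the sums were 118.5, 118.5 and 81.7 in WT mice and 90.6, 61.5 and 66.8 in *Npc1*-/- mice. Within *Npc1*-/- mice neither these sums nor the choroid plexus sums (5105, 2480 and 2519) kept the order of *Igf2*. The fibroblast sums with *Igfbp2* did. The part of these cells in the *Igf2* and *Plagl1* values was not tested. *H19*, the maternal noncoding RNA next to *Igf2*, was at 7.77, 10.4 and 3.95 in WT and at 5.30, 4.42 and 2.81 in *Npc1*-/- samples (log2 fold change -0.69, SE 0.35, adjusted p = 0.3).

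**Figure D4:**
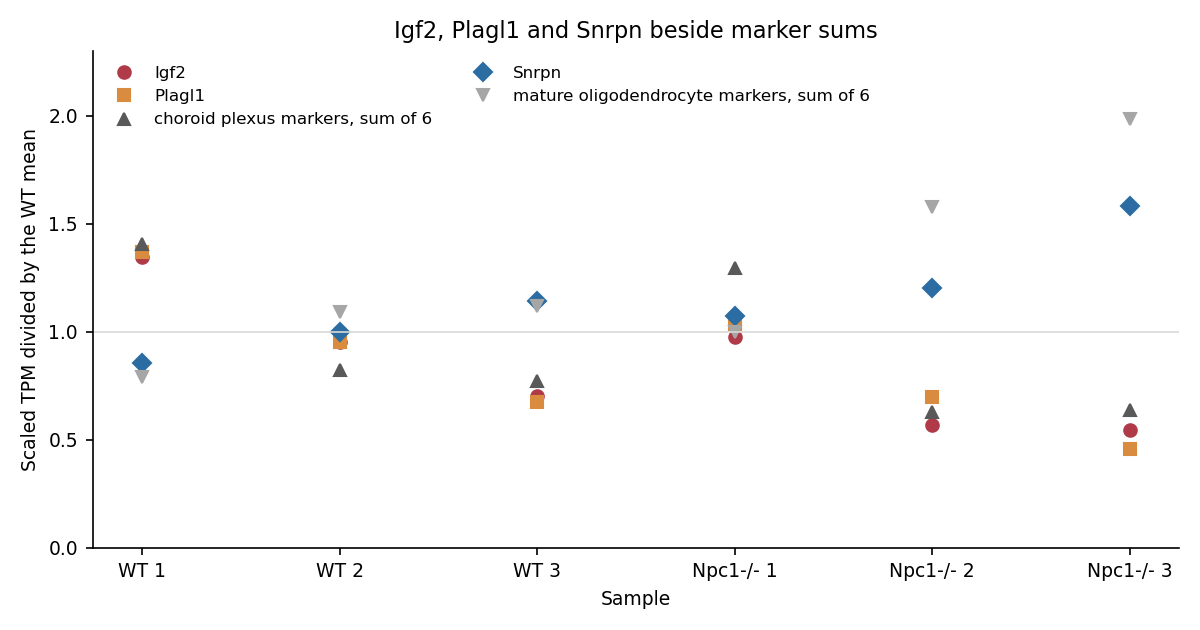
Scaled TPM of Igf2, Plagl1 and Snrpn, and the sums of 6 choroid plexus and of 6 mature oligodendrocyte markers, each divided by its WT mean, in the 6 samples. Igf2, Plagl1 and the choroid plexus sum are highest in WT 1 and Npc1-/- 1 within their genotypes. Snrpn and the mature oligodendrocyte sum are highest in Npc1-/- 3, whereas with TPM as deposited Snrpn is highest in WT 3 (121).

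*Igf2* shares 59.3% of its stretches of 100 bases with the overlapping gene *Gm49394* and the antisense *Igf2os*. *Gm49394* was at no more than 0.0963 and *Igf2os* at no more than 0.317 scaled TPM, so little was assigned to either. Of the 14 genes of the IGF system, 12 were tested, none was called and 11 had negative log2 fold changes, with a median of -0.52. *Igf1r*, the receptor through which IGF1 and IGF2 signal, was at 9.29, 7.81 and 9.74 in WT and at 3.80, 4.29 and 5.70 in *Npc1*-/- samples, without overlap (-0.90, SE 0.16, adjusted p = 0.0539 by limma). *Igfbp7*, a secreted binding protein that is abundant in brain vessels, was at 340.5, 276.6 and 318.7 in WT and at 159.1, 173.7 and 216.3 in *Npc1*-/- samples (-0.77, SE 0.14, adjusted p = 0.0547). The maternal *Igf2r*, the receptor that carries IGF2 to lysosomes, had the smallest difference of the genes with negative values (-0.11, SE 0.16, adjusted p = 0.757). The pericyte and endothelial marker sums given above were lower in every *Npc1*-/- sample, and their part in these values was not tested. Of the PLAG family, *Plagl2* (-0.25, SE 0.14, adjusted p = 0.376) was tested beside *Plagl1*, and *Plag1* did not reach the filter.

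*Peg3* and *Peg10* stand for domains of chromosomes 7 and 6. *Peg3*, a large zinc finger protein gene known for roles in growth and maternal behaviour, lies at chr7:6703892-6730431 on the minus strand. It was at 6.16, 4.87 and 5.71 scaled TPM in WT and at 6.35, 5.21 and 6.34 in *Npc1*-/- samples, with overlap (log2 fold change 0.09, SE 0.13, adjusted p = 0.747 by limma, and 0.0010 without WT 2). Its partners *Usp29*, *Zim1* and *Zfp264* did not reach the filter. *Peg10*, a gene derived from a retrotransposon whose gag-like protein is needed for the placenta, lies at chr6:4747306-4760517 on the plus strand. It was at 2.23, 2.14 and 1.98 in WT and at 2.03, 1.76 and 1.75 in *Npc1*-/- samples, with *Npc1*-/- 1 above WT 3 (log2 fold change -0.16, SE 0.13, adjusted p = 0.531). *Sgce*, which shares the start of *Peg10* in the opposite direction and is paternal too, had 0.15 (SE 0.14, adjusted p = 0.576). Of 6 retrotransposon-derived genes tested none was called, and beside *Rtl8a* (0.19, SE 0.14, adjusted p = 0.479) *Rtl8b* had the smallest p (0.15, SE 0.11, adjusted p = 0.483).

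Set side by side, the imprinted genes listed divide into those known to be paternally and those known to be maternally expressed. Of 23 paternal genes tested, members included, 17 had a positive log2 fold change, and of 16 maternal genes 14 had a negative one, where 51.0% of all genes were positive and 49.0% negative. With TPM as deposited 6 of the 23 paternal genes were positive and 15 of the 16 maternal genes negative, and 17 and 14 of them lay above and below the median gene. The median was 0.13 for the paternal and -0.13 for the maternal genes, and 0.01 for all genes tested. The members were themselves split against this: of 7 paternal members 3 were positive (*Peg3*, *Ndn*, *Snrpn*) and 4 negative, and of 3 maternal members *Rian* was positive. Without the members, 14 of 16 paternal and 1 of 13 maternal genes were positive. This division was noticed in these data and is given as a description without a test.

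In each sample, the mean log2 of the 16 maternal genes was taken from that of the 23 paternal genes. The difference was -0.24, -0.32 and -0.05 in WT and 0.09, 0.19 and 0.09 in *Npc1*-/- samples, so that the lowest *Npc1*-/- sample was above the highest WT sample. The paternal mean alone overlapped between genotypes (difference 0.14), while the maternal mean was lower in every *Npc1*-/- than in every WT sample (difference -0.19). Outside the Prader-Willi domain, 11 of 17 paternal genes were positive and 13 of 15 maternal genes negative. Besides *Peg12*, the paternal genes whose groups did not overlap were *Snhg14*, *Ndn* and *Inpp5f* (log2 fold change 0.53, SE 0.16, adjusted p = 0.11 by limma), all higher in *Npc1*-/- samples. The maternal genes without overlap were *Kcnq1* (-1.005, SE 0.35, adjusted p = 0.153), *Slc22a18*, *Mirg* and *Ube3a*, lower, and *Commd1* (0.22, SE 0.10, adjusted p = 0.232), higher. These were 4 of 23 paternal genes, all higher, and of 16 maternal genes 4 lower and 1 higher. Of all genes tested, 13.3% were higher and 14.2% lower without overlap. *Kcnq1*, a potassium channel of epithelia, was at 4.03, 2.15 and 1.18 in WT and at 1.11, 0.819 and 0.674 in *Npc1*-/- samples. *Grb10*, an adaptor that holds back insulin and IGF receptors, is maternal in most tissues and paternal in neurons and so was placed on neither side. *Ube3a* and *Igf2*, whose imprinting also depends on the cell type, were kept on the side of their known allele. The division is thus by known allele and not by the allele used in these cells. *Grb10* was at 8.04, 6.26 and 6.48 in WT and at 4.23, 3.78 and 4.17 in *Npc1*-/- samples (-0.70, SE 0.13, adjusted p = 0.0546). With TPM as deposited (-1.04, adjusted p = 0.0383) and with a mean TPM of at least 5 (adjusted p = 0.0418), *Grb10* was called and was the one imprinted gene that was. *Peg12* did not reach the latter filter and was not tested there. The part of the neuronal and vascular markers in this division was not tested, nor was that of transcript length, with a median longest transcript of 3763 bases for the paternal and 4234 for the maternal genes.

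**Figure D5:**
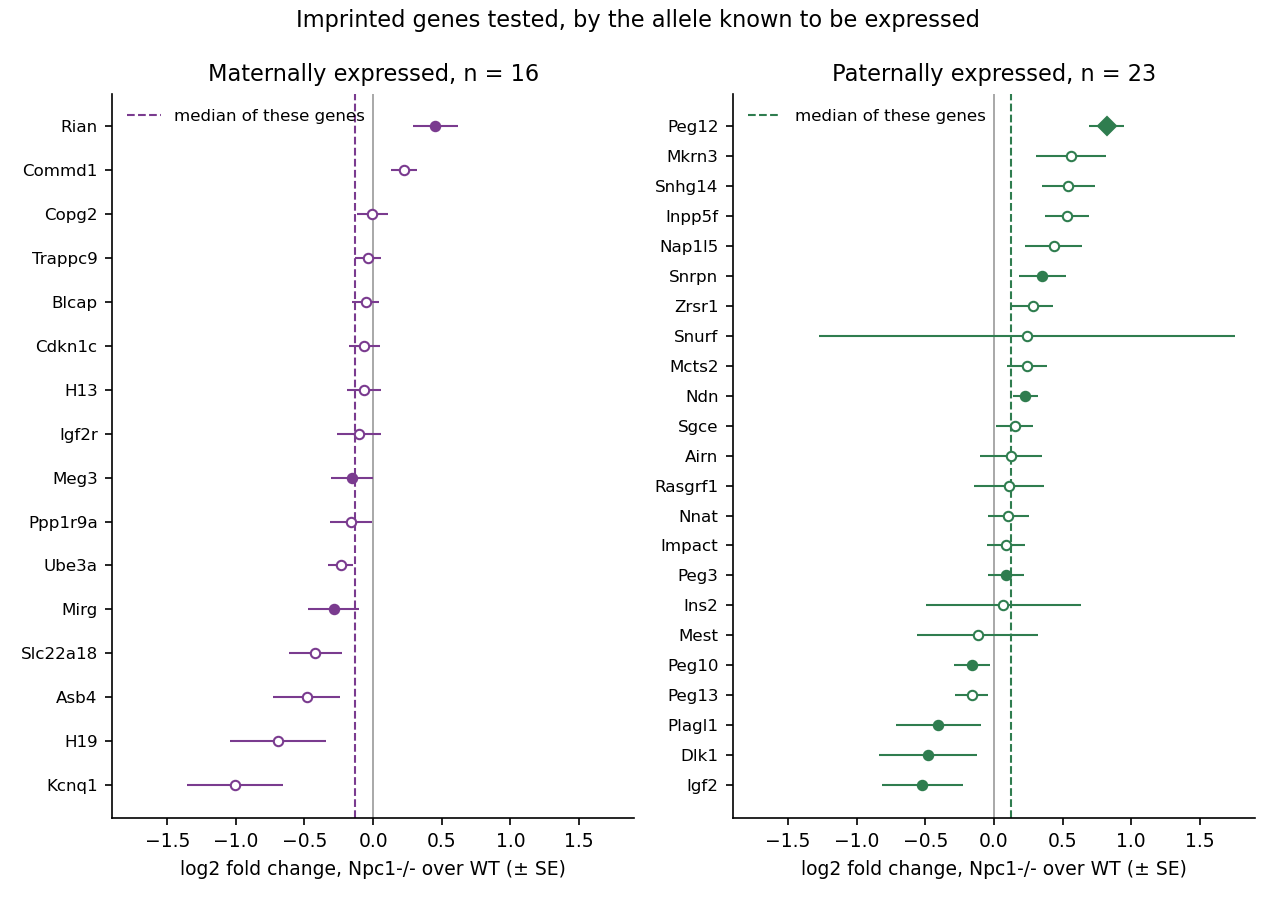
Log2 fold change (Npc1-/- over WT, ± SE of the fit to 3 mice per genotype) of 16 maternally and 23 paternally expressed genes, with filled circles for the 10 members, open circles for other imprinted genes, a diamond for Peg12, the one gene called, and dashed lines at the medians of -0.13 and 0.13. Most maternal genes lie left of 0 with Rian and Commd1 to the right, and most paternal genes lie right of 0 with Igf2, Dlk1 and Plagl1 lowest, whereas with TPM as deposited 6 of the 23 paternal genes are positive.

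Around each member, all genes whose span lies within 500 kb were counted, between 4 and 12 tested genes per member. Beside *Ndn* the 1 gene called was *Peg12*, and beside *Igf2* it was *Ifitm10*, which is not among the imprinted genes listed. *Ifitm10* was at 3.15, 3.68 and 3.63 scaled TPM in WT and at 6.32, 5.93 and 6.32 in *Npc1*-/- samples, and rose by 0.75 (SE 0.11, adjusted p = 0.0427 by limma). No gene was called in the windows of the other 8 members.

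The genes that keep imprints were measured in the same libraries. None of the 11 tested of 13 was called, and 8 had negative log2 fold changes, with a median of -0.06. They comprise the imprint-binding zinc finger proteins with their cofactor, CTCF, the DNA methyltransferases and their partners, and the TET enzymes that oxidise methylcytosine. The smallest p values were those of *Tet3*, at 7.61, 6.67 and 7.70 scaled TPM in WT and 5.68, 5.11 and 6.34 in *Npc1*-/- samples (log2 fold change -0.34, SE 0.12, adjusted p = 0.154 by limma), and *Tet1* (-0.37, SE 0.18, adjusted p = 0.269). Both *Tet3* and *Tet1* were lower in every *Npc1*-/- than in every WT sample, as were 14.2% of all genes tested. *Zfp445*, a zinc finger protein that guards imprints in somatic cells, had 0.07 (SE 0.13, adjusted p = 0.824).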

How the data were processed

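RNA-seq was made from O4-purified cells of 3 WT and 3 *Npc1*-/- mice, 1 mouse per library, and samples were grouped by the genotype in their labels. The authors deposited TPM and FPKM for 55492 genes with 2 decimals. Their methods name trimming with bbduk, STAR on GRCm38, featureCounts and DESeq2, whereas the submitters' processing notes name cutadapt 2.3, STAR 2.7.8a, RSEM 1.3.3, FastQC 0.11.8 and MultiQC 1.7. Which of these made the deposited TPM and FPKM is not given in the sources used here, nor is the use of strand. The FPKM values served as an alternative and to estimate depth from the steps that single fragments leave in genes with 1 transcript, with errors up to 1.10% on simulated samples. The depth leaves *Mirg* the least certain member, and the errors given are spread between mice. No count test was run, because whole fragments were not recoverable where a gene has several transcripts.

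TPM was divided by median-of-ratios size factors over 18690 genes above 0 in every sample, since *Mbp* and its like take a varying share of the total. A pseudocount of 0.5 was added, log2 was taken, and genes whose mean TPM reached 0.5 were fitted with limma 3.58.1 (lmFit, eBayes with trend, two-sided) in R 4.3.3 with genotype as the only factor. Tested on simulated data with 15245 genes, the fit called 158 (79%) of 200 genes given a log2 change of 1.5, and 4 unchanged ones. No smaller change was simulated, so that share does not hold for the members, whose log2 fold changes were all smaller in size. Ratios within samples were compared by exact permutation (20 arrangements). Positions came from GENCODE M21, promoters and microRNAs from RefSeq. Shared sequence was counted as stretches of 100 bases. Tables and plots were made in Python 3.11.15 (pandas 2.3.3, numpy 2.4.6, matplotlib 3.10.9).

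The members and the gene lists were chosen with earlier results of these data known. Named were all members, from each list of gene families and systems (not the marker lists, which enter as counts and sums) the genes called or the 2 with the smallest p, *Snrpb*, and called genes within 500 kb of a member. *Mkrn3*, *Snhg14*, *Snurf*, *Ube3a*, *Inpp5f*, *Kcnq1*, *Slc22a18*, *Commd1*, *Grb10*, *H19*, *Igf2r*, *Sgce*, *Zfp445*, *Npc1*, *Xist*, *Igfbp2*, the markers named, genes that share sequence with a member and genes below the filter lie outside that rule and were chosen once values were seen. Alternatives were FPKM, TPM as deposited, quantile normalization, other pseudocounts and filters, limma without trend or with robust estimation, the replicate number as a block, and each sample left out.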

Additional observations from a re-analysis of the deposited data

How the results depend on the processing

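None of the 10 members was called in 15 of 16 alternatives. The exception was the fit with the replicate number as a block, where 3 were, *Igf2* (adjusted p = 0.0281), *Rian* (0.0297) and *Snrpn* (0.0337, all by limma). With that block 2011 genes were called in all, and 5 other imprinted genes. The numbers are shared between different mice, and the labels do not say whether they mark pairs. Correlations of deviations from the group means between same-numbered samples were 0.414, 0.0602 and 0.326. All were positive, which does not settle whether the numbers pair the samples. The main fit left the number out, and the calls depend on that choice. The exact sign-flip test of the 5 ratios by number, which cannot move the differences, gave p values from 0.25, the smallest it allows, to 0.75. With TPM as deposited the median gene moved to -0.33, 924 genes were called, 6 of 23 paternal genes were positive, and *Peg3* (-0.25), *Ndn* (-0.13) and *Snrpn* (-0.0195) reversed. Over all genes, 225 were called with quantile normalization, 21 with no filter, 447 with a mean TPM of at least 5 and 42 without trend. Leaving out 1 sample gave between 4 and 486 genes, the latter without *Npc1*-/- 3. Of the other imprinted genes, between 0 and 2 were called when 1 sample was left out and 0 with no filter. With a mean TPM of at least 5, 10 of 13 paternal genes were positive and *Mirg*, *Dlk1*, *Peg10* and *Plagl1* were not tested, and with FPKM *Mirg* was not tested. The median of the paternal genes stayed above that of the maternal genes in the 13 alternatives that could move it (the 2 other limma settings and the block change errors only). These counts by allele were added after seeing the data. With 3 mice per group, a member would have needed a larger difference or a smaller spread to be called, and no ratio could reach a p below 0.1.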
